A study of Mus musculus with 9 samples.

Results

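Retinal RNA of mice with oxygen-induced retinopathy (OIR) that had received the HIF inhibitor 32-134D was compared with retinal RNA of mice raised in room air. The comparison held 6 of the 9 mice that were sequenced, 3 treated OIR mice (numbered 2, 5 and 10 in the labels) and 3 control mice (1, 6 and 7), chosen by their labels and not by any measured value. All were wild-type C57BL/6 mice, and retina was taken at postnatal day (P) 17. Treated OIR mice followed the OIR model and were given 1 intraocular injection of 32-134D at P12, so that RNA was collected 5 days later. The dose is 70 ng in 1 label and 70 ng/µl in another. Control mice were kept in room air and carried the treatment label Control+DMSO, DMSO being the vehicle. The labels do not say whether these control mice were injected, and where they were not, an effect of the injection cannot be told apart from the other differences between the groups. The other 3 mice, OIR mice 3, 5 and 6 (Hypoxia+DMSO), are used only for values set beside those of the treated mice. The labels did not say whether the mice of a group came from separate litters, and p-values measure the spread between these mice only.

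In the OIR model, newborn mice breathe high oxygen, which stops growth of the retinal vessels and removes part of the capillary bed. On return to room air the avascular inner retina is short of oxygen, and vessels grow back from the surviving bed, in part as disordered tufts at the inner surface. Under low oxygen the prolyl hydroxylases that mark HIF-1α and HIF-2α for degradation lose activity. The HIF subunits then accumulate, pair with ARNT, and switch on genes for angiogenic ligands, glycolysis and their own hydroxylases. The comparison asked which of these changes were present in the inhibitor-treated retina 5 days after the injection.

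Total counts were 16028731 to 18560178 in treated OIR and 16864135 to 27213184 in control mice. A pair of mice stood apart and bear on what follows. In treated OIR mouse 2, lens crystallin genes took 15.8% of all counts (Wilson 95% interval 15.76% to 15.79%, counting error only), against at most 0.184% in any other mouse. A list of 13 lens genes other than crystallins summed to 6674 CPM (counts scaled to library size) in this mouse and to between 8.48 and 50.6 CPM in the others. The same mouse had the lowest sum of retinal ganglion cell markers of all 9 mice (256 CPM) and the highest sum of gliosis genes (6600.5 CPM). OIR mouse 6, with 0.0326% crystallin counts, came next in both sums (363 and 5362 CPM). In control mouse 1, microglia and macrophage markers summed to 2782 CPM, against 396 and 187 CPM in control mice 6 and 7. By Xist and Y-linked counts, control mouse 1 and treated OIR mice 2 and 5 were female and the other 3 of these 6 mice were male. Photoreceptor genes were abundant in every library, with summed rod markers of 59659, 80832 and 68988 CPM in treated and 62440.3, 72186 and 95486 CPM in control mice. The part of lens RNA in other values of mouse 2 was not tested beyond leaving the mouse or the lens genes out. Results are therefore given over the 6 mice and over 5 mice, without treated OIR mouse 2.

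**Figure D1:**
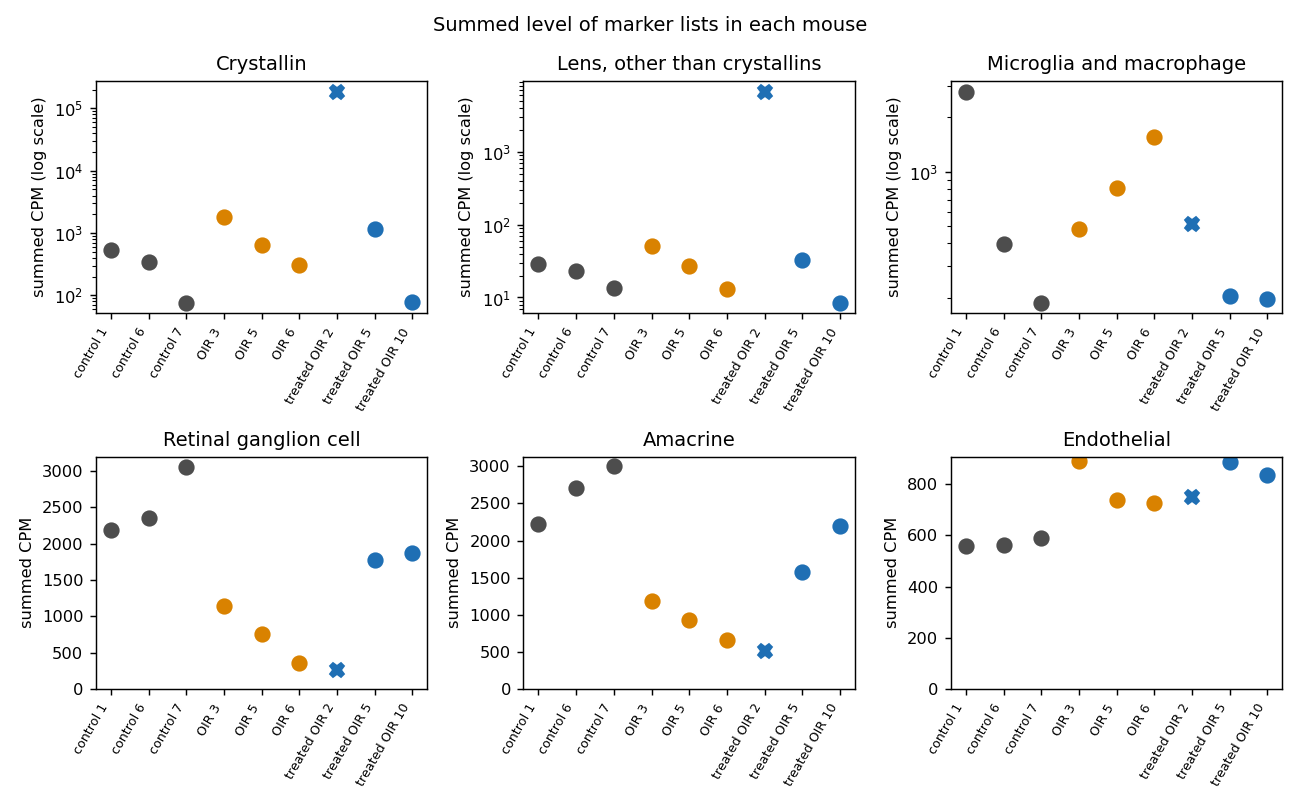
Summed CPM of 6 marker lists (vertical axes, the upper row on a log scale) in each of the 9 mice (grey, control; orange, OIR; blue, treated OIR; cross, treated OIR mouse 2). Treated OIR mouse 2 lies far above all others in both lens lists and below the control mice in ganglion and amacrine cell markers, and control mouse 1 is the highest for microglia and macrophage markers.

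Over the 6 mice, edgeR's quasi-likelihood test gave 0 genes with an adjusted p below 0.05 among 16902 tested (lowest adjusted p 0.128). An unadjusted p below 0.05 was reached by 1431 genes that were higher in treated OIR mice (8.47%) and 1187 that were lower (7.02%). DESeq2 on the same mice called 142 higher (0.897% of the 15834 genes it gave an adjusted p) and 134 lower (0.846%), and limma-voom with a weight for each mouse called 20 and 7. Every treated OIR mouse lay above every control mouse for 2208 genes (13.1%) and below for 2112 (12.5%). Leaving out the 16 crystallin genes, or these and the other lens genes, kept the edgeR count over 6 mice at 0.

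Without treated OIR mouse 2, edgeR called 24 genes higher (0.138% of 17443) and 12 lower (0.0688%) in treated OIR retina. The estimated biological coefficient of variation was 0.309 with the mouse and 0.224 without it. All 36 genes had the same direction over 6 mice, 33 with an unadjusted p below 0.05, 26 without any overlap between the groups, and 22 called by DESeq2. Of all genes, 13.1% lay above and 12.5% below the controls without overlap. The 36 were chosen in 5 of these 6 mice, so these counts are no independent support. With the crystallins also left out, 26 were called higher and 16 lower. The 5-mouse calls rest on few animals. They fell to 0 and 0 without treated OIR mouse 5, to 2 and 2 without treated OIR mouse 10, and to 9 and 1 without control mouse 6, and rose to 39 and 33 without control mouse 1. Below, "rose" and "fell" are used for genes called by edgeR over the 5 mice, and log2 fold changes are treated OIR against control over 5 mice, with standard error, unless 6 mice are named.

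Many hypoxia-response genes were higher in treated OIR than in control retina at P17. Of 26 genes on a hypoxia-response list, 4 rose over 5 mice (Ndufa4l2, Stc2, Egln3 and Vegfa), where 0.138% of all genes did, and 0 fell. Over 6 mice, 17 of the 26 were higher with an unadjusted p below 0.05, where 8.47% of all genes were, and 0 were lower. Every treated mouse lay above every control mouse for 17 of them, against 13.1% of all genes. The list had a median log2 fold change of 0.52 over 5 mice and 0.94 over 6, against -0.01 and 0.02 for all genes. The list's summed level was 4743, 2443 and 2169 CPM in treated OIR mice 2, 5 and 10 and 1522, 1587 and 1662 CPM in control mice 1, 6 and 7, so the mouse with lens RNA was also the highest for these genes.

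Egln3 (ENSMUSG00000035105, chr12:54178981-54203860 on GRCm38), which encodes the HIF prolyl hydroxylase PHD3 and is itself a HIF target, was counted at 8.07, 8.52 and 6.32 CPM in control mice 1, 6 and 7. In treated OIR mice 2, 5 and 10 it was at 189.9, 23.5 and 22.0 CPM. The groups did not overlap, mice 5 and 10 were close to each other, and mouse 2 lay far above both. Egln3 rose by 1.58 ± 0.19 (edgeR adjusted p = 0.0261) over 5 mice, and its value over 6 mice was 3.36 ± 0.90, for which DESeq2 gave no adjusted p. Stc2 (ENSMUSG00000020303, chr11:31357307-31370074), encoding the secreted glycoprotein stanniocalcin 2, was at 6.18, 6.79 and 6.96 CPM in control and 76.0, 25.8 and 19.0 CPM in treated OIR mice. It showed the same order, with tight controls and mouse 2 on top, and rose by 1.76 ± 0.20 (edgeR adjusted p = 0.0208). Ndufa4l2 (ENSMUSG00000040280, chr10:127514967-127517154), a mitochondrial protein induced by HIF-1 that lowers oxygen use, was at 18.4, 14.5 and 22.7 CPM in control and 234, 105 and 84.1 CPM in treated OIR mice. Its rise of 2.36 ± 0.19 (edgeR adjusted p = 0.0103) kept all treated mice clear of all controls. Ndufa4l2 overlaps Shmt2 in the annotation, and its count is uncertain if strand was not used.

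HIF binds a short core, searched here as ACGTG and GCGTG on both strands, in windows from 250 bases before to 50 after each RefSeq start (GRCm38.p6). Of all 32851 such promoters, 43.8% held at least 1 match. Of the 24 genes that rose, 16 had an entry with 19 promoters in all, 11 of which (57.9%) held a match, and of the 12 that fell, 9 had an entry with 13 promoters, 6 of which (46.2%) held one. Windows of called hypoxia-response genes are shown 5′ to 3′ on the minus strand, with matches in capitals. They are Stc2 at chr11:31370012-31370311, Egln3 at chr12:54203825-54204124 and the downstream Vegfa start at chr17:46025114-46025413. This Vegfa window lies inside the annotated gene (chr17:46016993-46032369) and is not its upstream promoter.
Stc2: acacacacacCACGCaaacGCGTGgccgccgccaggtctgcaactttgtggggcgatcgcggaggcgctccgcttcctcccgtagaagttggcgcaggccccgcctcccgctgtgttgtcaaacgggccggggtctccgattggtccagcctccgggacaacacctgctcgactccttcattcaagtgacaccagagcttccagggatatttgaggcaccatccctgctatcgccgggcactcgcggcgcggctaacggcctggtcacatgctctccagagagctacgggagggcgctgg
Egln3: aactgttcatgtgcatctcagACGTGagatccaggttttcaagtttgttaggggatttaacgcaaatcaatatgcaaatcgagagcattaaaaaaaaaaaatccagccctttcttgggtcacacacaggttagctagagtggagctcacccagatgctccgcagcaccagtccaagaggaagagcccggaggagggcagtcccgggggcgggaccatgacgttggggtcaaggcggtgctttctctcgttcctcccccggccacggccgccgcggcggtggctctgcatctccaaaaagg
Vegfa: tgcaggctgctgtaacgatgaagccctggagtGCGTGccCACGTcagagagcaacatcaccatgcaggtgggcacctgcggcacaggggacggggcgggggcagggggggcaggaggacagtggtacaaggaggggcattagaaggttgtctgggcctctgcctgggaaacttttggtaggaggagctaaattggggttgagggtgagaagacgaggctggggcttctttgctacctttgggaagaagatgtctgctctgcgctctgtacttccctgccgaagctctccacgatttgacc
The Stc2 window held 2 matches, at its far end from the start, the Egln3 window held 1, and the Vegfa window inside the gene held 2. A window at the upstream Vegfa start (chr17:46032328-46032627) and the Apln window (chrX:48034804-48035103) held 0. These are letter matches only, and binding was not measured.

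RNA of the HIF subunits themselves did not pass the test. Hif1a was at 489, 559.5 and 599.8 CPM in control and 547, 605 and 596 CPM in treated OIR mice, which overlapped (log2 fold change 0.13 ± 0.14). Epas1, which encodes HIF-2α, overlapped as well, with 169.9, 173 and 191 CPM in control and 188, 227 and 207 CPM in treated mice (0.29 ± 0.12). Among the 10 genes of the HIF subunit and hydroxylase list, Egln3 was the 1 that rose (0.138% of all genes did). Egln1, which encodes the main HIF prolyl hydroxylase PHD2, had a value of 0.50 ± 0.14 and Vhl, the ubiquitin ligase subunit that recognises hydroxylated HIF, one of 0.30 ± 0.11. For both, every treated mouse lay above every control mouse, and neither passed over 5 mice (edgeR adjusted p = 0.176 and 0.255).

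Not every hypoxia-response gene was high in all 3 treated mice. Car9, the membrane carbonic anhydrase, was at 26.2, 1.10 and 0.976 CPM in treated OIR mice 2, 5 and 10 and at 1.12, 0.297 and 0.193 CPM in control mice. Hmox1, the heme-degrading oxygenase, was at 277, 12.9 and 9.56 CPM in treated and 22.9, 11.3 and 4.51 CPM in control mice. Both were high in mouse 2, while mice 5 and 10 lay within the range of the controls. The log2 value of Car9 was 4.03 over 6 mice and 0.87 over 5, and that of Hmox1 was 2.93 and -0.22. Neither gene was called by edgeR. Genes of glycolysis were mixed, with 0 of 22 called over 5 mice in either direction. For Pfkp, which encodes the platelet isoform of phosphofructokinase, treated OIR mice were at 725, 441 and 469.8 CPM and controls at 319, 334 and 302 CPM. Pfkm, its muscle isoform, was at 105, 141 and 162 CPM in treated and 192, 219.7 and 254 CPM in control mice. The groups did not overlap for either isoform, Pfkp being higher and Pfkm lower in treated mice, but neither passed the test (0.52 ± 0.12 and -0.54 ± 0.15, edgeR adjusted p = 0.145 and 0.171).

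Genes for angiogenic signals were among the largest differences. Vegfa (ENSMUSG00000023951, chr17:46016993-46032369), the chief angiogenic ligand downstream of HIF, was at 118, 129 and 115 CPM in control mice. In treated OIR mice it was at 462, 252 and 249.7 CPM, and the groups did not overlap. Mice 5 and 10 had nearly equal values and mouse 2 the highest. Vegfa rose by 1.06 ± 0.11 (edgeR adjusted p = 0.0199) over 5 mice, and DESeq2 called it over 6 mice (adjusted p = 0.000122). Kdr, which encodes the VEGF receptor VEGFR2, was at 105, 125 and 101 CPM in control and 207, 143 and 184 CPM in treated mice, without overlap, but did not pass over 5 mice (0.58 ± 0.15, edgeR adjusted p = 0.159).

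Apln (ENSMUSG00000037010, chrX:48025146-48034853), which encodes the endothelial tip cell peptide apelin, had the largest rise of the 24. It was at 7.89, 3.07 and 7.93 CPM in control and 127, 66.8 and 67.9 CPM in treated OIR mice, where the lowest treated mouse lay far above the highest control. The rise was 3.42 ± 0.34 over 5 mice (edgeR adjusted p = 0.0192) and the value over 6 mice was 3.79 ± 0.45. Aplnr (ENSMUSG00000044338, chr2:85136225-85139923), the apelin receptor, was at 8.14, 6.79 and 5.42 CPM in control and 4.57, 38.0 and 43.7 CPM in treated mice. Mice 5 and 10 were high, but mouse 2 lay below all 3 controls, and the rise of 2.59 ± 0.20 over 5 mice (edgeR adjusted p = 0.0103) stood beside a value of 2.09 ± 0.73 over 6 (adjusted p = 0.29). Adm, the vasodilator peptide adrenomedullin, was at 3.21, 2.23 and 1.22 CPM in control and 44.5, 20.6 and 10.8 CPM in treated mice. It did not overlap either, but missed the threshold over 5 mice (2.79 ± 0.41, edgeR adjusted p = 0.0536). Of the 28 angiogenic ligands and receptors listed, 4 rose (Apln, Aplnr, Tie1 and Vegfa), where 0.138% of all genes did, and 0 fell. For 8 of the 28 every treated mouse lay above every control mouse (13.1% of all genes), and for 2 below (12.5%). Over 6 mice DESeq2 called 5 of the 28 higher (0.897% of all genes) and 1 lower (0.846%). Lists share members, and Vegfa, Egln3, Apln and Tie1 each count in more than 1 list, so the lists are not independent.

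**Figure D2:**
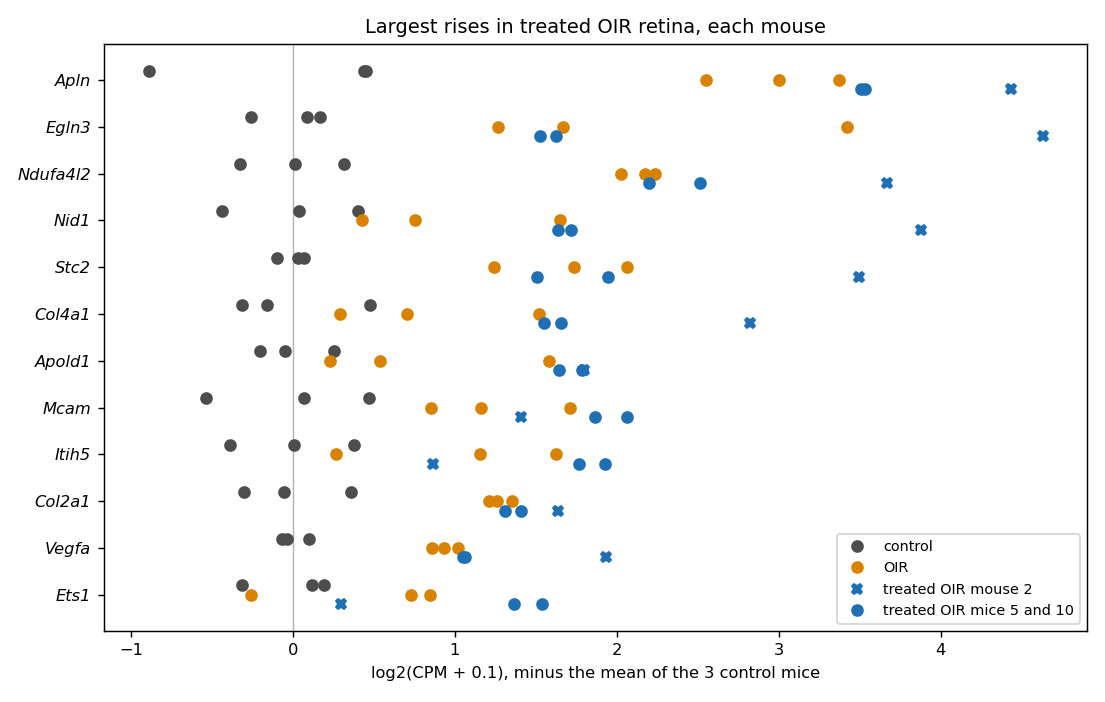
Each of the 12 largest rises by mouse, as log2(CPM + 0.1) minus the mean of the 3 control mice (horizontal axis; grey, control; orange, OIR; blue, treated OIR; cross, treated OIR mouse 2). Treated OIR mice lie to the right of all control mice for each gene, as the rule that named them required, and mouse 2 is highest for Egln3, Stc2, Nid1 and Vegfa but below mice 5 and 10 for Mcam, Itih5 and Ets1.

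Genes of tip cells, the endothelial cells that lead a sprout, were higher in treated OIR than in control retina. Of 14 measured tip cell genes, 3 rose over 5 mice (Apln, Mcam and Cd34), where 0.138% of all genes did. Over 6 mice, 12 were higher with an unadjusted p below 0.05 (8.47% of all genes). The median was 1.08 over 5 mice and 1.22 over 6. Mcam, which encodes the adhesion molecule CD146, was at 20.1, 15.3 and 9.99 CPM in control and 38.8, 61.2 and 53.2 CPM in treated mice, and rose by 1.91 ± 0.25 (edgeR adjusted p = 0.0384). Cd34, a sialomucin of filopodia-bearing and other endothelial cells, was at 14.9, 12.7 and 13.3 CPM in control and 14.8, 41.2 and 43.8 CPM in treated mice. Mice 5 and 10 were both far above the controls, and mouse 2 was within their range. The rise of Cd34 was 1.64 ± 0.14 over 5 mice (edgeR adjusted p = 0.012). Esm1, a secreted proteoglycan made by tip cells, was low throughout, at 0.768, 0.793 and 0.129 CPM in control and 12.4, 1.47 and 3.55 CPM in treated mice, and was not called over 5 mice (2.10 ± 0.69, edgeR adjusted p = 0.226).

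The summed level of general endothelial markers was 749, 887 and 836 CPM in treated OIR mice 2, 5 and 10, all above the 557, 563 and 589 CPM of control mice 1, 6 and 7. In the vehicle OIR mice 3, 5 and 6 it was 890.4, 737 and 726 CPM, a range that overlaps the treated mice. In bulk retina, more endothelial cells and more RNA of these genes per cell cannot be told apart. Of 20 endothelial genes, 3 rose over 5 mice (Tie1, Cdh5 and Pecam1), where 0.138% of all genes did, and 0 fell. The median was 0.66 over 5 mice and 0.35 over 6. Cdh5, the junction protein VE-cadherin, was at 13.6, 15.3 and 15.2 CPM in control and 12.8, 38.5 and 33.1 CPM in treated mice (1.30 ± 0.14, edgeR adjusted p = 0.0208). Treated OIR mouse 2 was the lowest of all 6 mice for this gene, and mice 5 and 10 were above every control. Tie1, an endothelial receptor kinase, showed the same order, with 9.29, 9.91 and 14.4 CPM in control and 8.82, 38.9 and 36.4 CPM in treated mice (1.76 ± 0.20, edgeR adjusted p = 0.0221). Other genes of the vessel wall among the 24 were Cd93 (2.07), the adhesion receptor Adgrl4 (1.58), the transcription factor Ets1 (1.45) and Apold1 (1.73), an endothelial early-response gene. Of these, Ets1 and Apold1 did not overlap between the groups over 6 mice, and Cd93 and Adgrl4 did.

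A pair of genes known from capillary and barrier endothelium went the other way. Ly6c1, a surface protein of capillary endothelium, was at 20.3, 25.0 and 32.9 CPM in control and 1.21, 7.79 and 7.61 CPM in treated mice, and fell by 1.75 ± 0.23 on the log2 scale (edgeR adjusted p = 0.0384). Slco1a4, an organic anion transporter of the blood-brain and blood-retina barriers, was at 19.1, 21.5 and 19.9 CPM in control and 2.41, 8.59 and 8.84 CPM in treated mice, and fell by 1.21 ± 0.17 (edgeR adjusted p = 0.0417). For both, mouse 2 was the lowest and no treated mouse reached the lowest control. Slco1c1, a thyroid hormone transporter of the same barrier, was at 9.15, 8.32 and 11.5 CPM in control and 0.634, 6.38 and 5.96 CPM in treated mice and did not pass over 5 mice (edgeR adjusted p = 0.26). Ly6c1, Slco1a4 and Slco1c1 stood beside a summed endothelial level that was higher in every treated mouse. In mouse 2, Cdh5 and Tie1 were nonetheless below every control. Kdr, on the same list, was at 207 CPM in this mouse and at 105, 125 and 101 CPM in control mice. Of the 20 listed endothelial genes, 19 had a positive value over 5 mice, and Slco1c1 (-0.64) did not. Cldn5, Ocln and Mfsd2a, also known from barrier endothelium, were among the 19.

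Of 12 pericyte and smooth muscle genes, 2 rose over 5 mice, where 0.138% of all genes did, and 0 fell. Values over 5 mice were positive for 8 of the 12, and the lowest was -1.28. Summed, the list was at 887, 1153 and 1118 CPM in treated OIR mice 2, 5 and 10. In control mice 1, 6 and 7 it was at 1042, 977 and 1254 CPM, and the groups overlapped. Rgs5, a regulator of G protein signalling that marks pericytes, was at 115, 128 and 140.0 CPM in control and 47.1, 275 and 321 CPM in treated mice. Its level in mouse 2 was under every control, whereas mice 5 and 10 were well above, and the value went from 1.23 ± 0.13 over 5 mice (edgeR adjusted p = 0.0199) to 0.76 ± 0.60 over 6 (adjusted p = 0.541). Abcc9, the sulfonylurea receptor subunit of the pericyte potassium channel, behaved alike, with 9.60, 8.03 and 9.80 CPM in control and 7.04, 24.2 and 26.0 CPM in treated mice (1.46 ± 0.17, edgeR adjusted p = 0.0221). Des, the intermediate filament desmin, was higher in all 3 treated mice (4.95, 6.68 and 6.17 CPM, against 2.37, 2.03 and 2.45 CPM in control), but did not pass over 5 mice (adjusted p = 0.115).

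Genes of the basement membrane and other matrix were among those that rose. Of 35 collagen and matrix genes, 3 rose over 5 mice (Nid1, Col4a1 and Col2a1), where 0.138% of all genes did, and 0 fell. Col4a1, a chain of the type IV collagen of vessel basement membranes, was at 147, 94.1 and 84.6 CPM in control and 745, 333 and 309 CPM in treated mice, without overlap and with mouse 2 the highest (1.57 ± 0.22, edgeR adjusted p = 0.0491). Col4a1 shares annotated sequence with Col4a2, and part of its count may come from there if strand was not used. Nid1, which links laminin to collagen IV, was at 23.7, 18.3 and 13.2 CPM in control and 265, 59.0 and 55.8 CPM in treated mice (1.64 ± 0.22, edgeR adjusted p = 0.0384). Col2a1, the fibrillar collagen of the vitreous, was at 65.4, 87.2 and 55.3 CPM in control and 212, 169 and 181 CPM in treated mice (1.34 ± 0.18, edgeR adjusted p = 0.0384). The type I collagen gene Col1a1 was at 487, 56.9 and 1.22 CPM in control and 63.2, 6.87 and 11.7 CPM in treated mice. Control mouse 1, which also had the most microglia and macrophage RNA, was the highest of the 6, and the lowest control was under all treated mice. Col1a2 had a like spread among controls, with 360.3, 82.3 and 8.45 CPM, and neither gene was called.

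Several of the 12 genes that fell are known from neurons. Pvalb (ENSMUSG00000005716, chr15:78191114-78206400), the calcium-binding protein parvalbumin of some amacrine and ganglion cells, was at 23.2, 24.3 and 29.7 CPM in control and 0.761, 10.4 and 8.94 CPM in treated OIR mice. All treated mice were below all controls, and mouse 2 was lower than mice 5 and 10 by a wide margin. Pvalb fell by 1.41 ± 0.18 over 5 mice (edgeR adjusted p = 0.0364). Pcp4 (ENSMUSG00000090223, chr16:96467606-96525793), a calmodulin regulator, was at 60.3, 62.0 and 69.0 CPM in control and 28.5, 30.5 and 30.7 CPM in treated mice, and here mouse 2 was close to the others. It fell by 1.05 ± 0.11 (edgeR adjusted p = 0.0199), and its value over 6 mice was -1.09 ± 0.10 (edgeR adjusted p = 0.128, the lowest reached over 6 mice, DESeq2 adjusted p = 1.62e-09). Cabp1, a neuronal calcium sensor, was at 175, 181 and 203 CPM in control and 26.8, 101 and 101 CPM in treated mice (-0.87 ± 0.12, edgeR adjusted p = 0.0384). Its values in mice 5 and 10 were nearly equal and below all controls.

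The channel genes Kcnab3, a potassium channel β subunit, and Kcnj9, the G protein-gated channel subunit GIRK3, fell by 0.94 ± 0.13 and 0.82 ± 0.12 (edgeR adjusted p = 0.0491 for each). Sema6b, a transmembrane semaphorin, fell by 0.91 ± 0.12 and Dtnbp1, which encodes dysbindin, by 0.72 ± 0.10 (edgeR adjusted p = 0.0364 and 0.0471). For Dtnbp1 the mice were tight, with 81.5, 79.6 and 83.0 CPM in control and 43.5, 49.1 and 49.6 CPM in treated mice. Spc25, a kinetochore subunit, was at 109.6, 138 and 150.0 CPM in control and 22.3, 56.4 and 54.7 CPM in treated mice (-1.25 ± 0.15, edgeR adjusted p = 0.0248), with mouse 2 lowest. A pair of pseudogenes made up the rest of the 12. Gm10123 overlapped between the groups over 6 mice, and the counts of both Gm10123 and Gm28661 are uncertain, since reads may be shared with near-identical copies. Kcnab3, Kcnj9 and Pcp4 overlap other annotated genes, as do Adm, Mcam, Cd34, Nid1, Abcc9, Ets1, Vwa1, Cdh5 and Arrdc3 among the genes above or called, and their counts are uncertain if strand was not used.

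**Figure D3:**
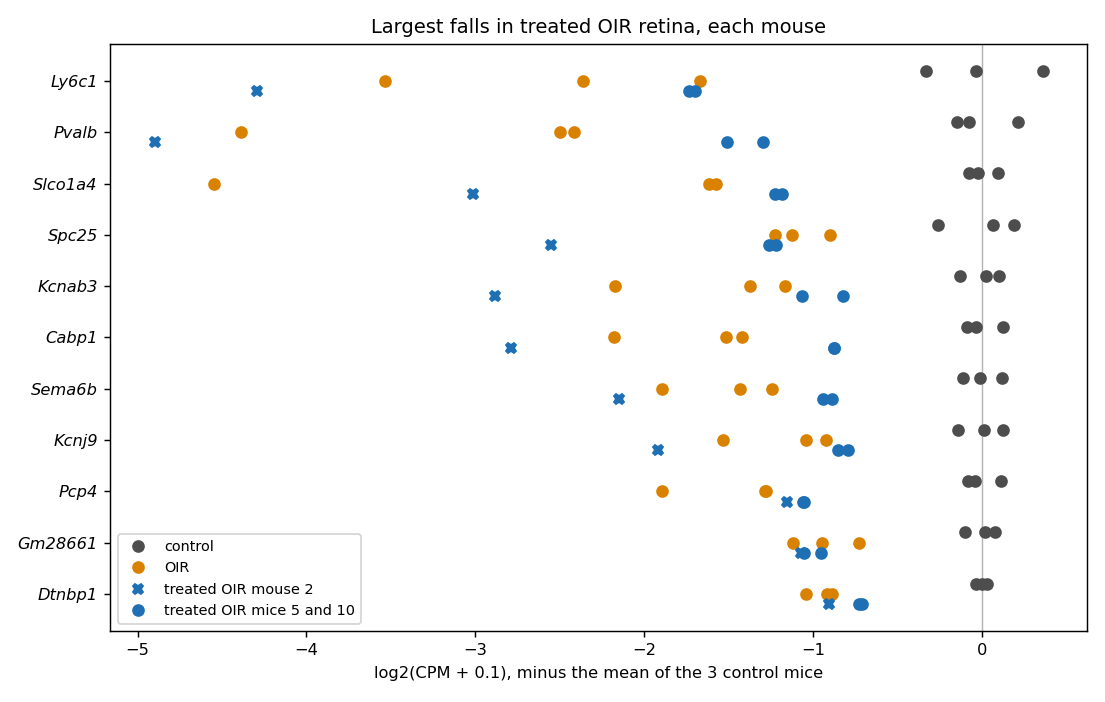
The 11 falls named by the rule, by mouse, as log2(CPM + 0.1) minus the mean of the 3 control mice (horizontal axis; grey, control; orange, OIR; blue, treated OIR; cross, treated OIR mouse 2). Every treated OIR mouse lies to the left of every control mouse, as that rule required, and mouse 2 is the lowest treated mouse for each of the 11 genes.

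Ganglion cells, the output neurons of the retina, and amacrine cells, interneurons of the inner retina, were followed by marker lists. Of 18 ganglion cell genes, 0 were called over 5 mice and 10 were lower with an unadjusted p below 0.05 (8.03% of all genes were over these mice). Over 6 mice 1 of the 18 was. The median was -0.44 over 5 mice and -0.89 over 6. The list summed to 2192, 2358 and 3056 CPM in control mice and 256, 1769.9 and 1871 CPM in treated OIR mice, so every treated mouse was below every control and mouse 2 was far below the others. Thy1, a surface glycoprotein of ganglion cells, was at 347, 341 and 494 CPM in control and 12.5, 228 and 249 CPM in treated mice (-0.72 ± 0.18, edgeR adjusted p = 0.159). Pou4f2, a transcription factor that specifies ganglion cells, was at 15.6, 16.5 and 22.9 CPM in control and 0.254, 12.3 and 11.8 CPM in treated mice (-0.60 ± 0.21, edgeR adjusted p = 0.246). In both, mice 5 and 10 lay below the controls but closer to them than mouse 2, and neither gene passed.

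Amacrine markers were lower by a similar median, -0.55 over 5 mice and -0.97 over 6. None of the 24 was called in either edgeR fit, where 12 were lower with an unadjusted p below 0.05 over 5 mice and 5 over 6 mice (8.03% and 7.02% of all genes). The list summed to 2216, 2702 and 3004 CPM in control and 517, 1581 and 2201 CPM in treated mice. The treated mice differed among themselves for genes of cholinergic (starburst) amacrine cells. Chat, the acetylcholine-synthesizing enzyme, was at 0.507, 0.184 and 12.4 CPM in treated OIR mice 2, 5 and 10 and at 9.39, 12.7 and 15.5 CPM in control mice. Slc18a3, the vesicular acetylcholine transporter, was at 0.888, 1.72 and 18.6 CPM in treated and 24.7, 22.7 and 37.4 CPM in control mice. For both genes mouse 10 was in or near the control range while mice 2 and 5 were close to 0, and neither was called. Slc18a3 lies within Chat in the annotation, and the pair may share counts. Vip, a peptide of another amacrine type, was at 0.190, 2.39 and 7.61 CPM in treated and 9.43, 11.9 and 10.6 CPM in control mice, again with mouse 10 nearest to the controls. Th, the marker of dopaminergic amacrine cells, was lower in all treated mice, at 0.127, 3.50 and 2.62 CPM against 5.87, 5.50 and 7.29 CPM (-1.02 ± 0.29, edgeR adjusted p = 0.19).

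Photoreceptor and bipolar cell lists had medians near 0 and 0 called genes. The medians over 5 mice were 0.02 for 18 rod genes, -0.09 for 13 cone genes and -0.04 for 17 bipolar genes. The bipolar genes went both ways, with 5 of 17 below the controls in every treated mouse (12.5% of all genes) and 1 above (13.1%). DESeq2 called 2 lower over 6 mice (0.846% of all genes). Gng13, a G protein γ subunit of ON bipolar cells, was lower in all treated mice (29.2, 49.1 and 35.5 CPM, against 74.9, 70.4 and 76.2 CPM in control), with a log2 value of -0.80 ± 0.15 that edgeR did not call over 5 mice (adjusted p = 0.115) and DESeq2 called over 6 (adjusted p = 0.00644). Opn1sw, the short-wavelength cone opsin, was at 354, 395 and 364 CPM in treated and 449, 545 and 509 CPM in control mice (-0.39 ± 0.14, edgeR adjusted p = 0.243). The cone genes also went both ways, with 6 of 13 positive over 5 mice (8569 of all 17443 genes were).

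Transcripts of the mitochondrial genome, which encode respiratory chain subunits, were lower in treated OIR than in control retina. The 13 listed genes made up 1.28% to 1.85% of counts in treated and 2.49% to 3.15% in control mice, without overlap. Of 12 measured genes, 0 were called by edgeR over either set. Over 6 mice, 9 were lower with an unadjusted p below 0.05 (7.02% of all genes), and DESeq2 called 7 lower (0.846%). For 10 of the 12, every treated mouse was below every control mouse (12.5% of all genes), and the median was -0.76 over 5 mice and -0.82 over 6. mt-Nd1, a subunit of respiratory complex I, was at 4373, 4138 and 5670.5 CPM in control and 1763, 2435 and 2547 CPM in treated mice (-0.92 ± 0.21, edgeR adjusted p = 0.145). mt-Co2, a subunit of cytochrome c oxidase, was at 117, 110.0 and 122 CPM in control and 51.7, 71.0 and 56.5 CPM in treated mice (-0.86 ± 0.13, edgeR adjusted p = 0.0615).

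Reactive gliosis and cytokine-response genes separated treated OIR mouse 2 from the other 2. Their median was 1.31 over 6 mice and -0.05 over 5, and 0 of 19 were called in either fit. Lcn2, an acute-phase protein of reactive glia, was at 1079, 10.9 and 7.61 CPM in treated OIR mice 2, 5 and 10 and 79.2, 73.6 and 16.5 CPM in control mice. Socs3, the feedback inhibitor of cytokine signalling through STAT3, was at 126, 9.02 and 5.60 CPM in treated and 13.5, 12.4 and 6.00 CPM in control mice. Bcl3, a nuclear IκB protein induced by the same cytokines, was at 123, 3.13 and 2.52 CPM in treated and 10.1, 8.17 and 5.35 CPM in control mice. For all 3 genes mouse 2 was the highest of the 6 mice and mouse 10 the lowest, so the sign of the value depends on mouse 2 (2.70 and -2.62 for Lcn2 over 6 and 5 mice, 2.13 and -0.55 for Socs3, and 2.43 and -1.48 for Bcl3). Sox9, a transcription factor of Müller glia, and Slc1a3, their glutamate transporter GLAST, were above the controls in every treated mouse. They did not pass over 5 mice (0.67 ± 0.17 and 0.53 ± 0.12, edgeR adjusted p = 0.158 and 0.142). The Müller glia list as a whole was not higher. For 2 of its 14 genes every treated mouse lay above every control (13.1% of all genes), and for 3 below (12.5%). The list's median was -0.28 over 6 mice and -0.17 over 5.

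Microglia and macrophage markers had a median of -1.41 over 5 mice and -1.14 over 6, with 0 of 20 called. Their sum was 512, 204 and 197 CPM in treated and 2782, 396 and 187 CPM in control mice, and the groups overlapped, since treated OIR mouse 2 lay above control mouse 6 and control mouse 7 was the lowest of the 6. Lyz2, lysozyme of myeloid cells, ranged from 8.12 to 387 CPM within the control group alone. Spp1, the cytokine osteopontin, ranged from 24.5 to 1675 CPM there. The part of control mouse 1 in the lower median was not tested beyond leaving it out, which turned the 6-mouse values of both genes from negative to positive. Tmem119, which marks resident microglia, was lower in every treated mouse, at 2.92, 3.07 and 2.83 CPM against 10.8, 7.73 and 6.25 CPM, but did not pass (-1.49 ± 0.31, edgeR adjusted p = 0.127). Cxcl12, a chemokine that guides vessels and leukocytes, was at 18.6, 18.0 and 21.0 CPM in treated and 33.6, 37.4 and 40.6 CPM in control mice (-0.92 ± 0.15, edgeR adjusted p = 0.0746 over 5 mice). Its groups did not overlap, and DESeq2 called it lower over 6 mice (adjusted p = 3.88e-05).

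The remaining lists held few calls. Fos (0.87), an immediate early transcription factor, was the 1 of 10 immediate early genes that rose (0.138% of all genes did). Its treated mice were close together at 53.4, 50.6 and 51.0 CPM against 26.8, 27.3 and 29.9 CPM in control mice (edgeR adjusted p = 0.0384). The other risen genes were Itih5 (1.84), a hyaluronan-binding protein, Arrdc3 (0.86), an arrestin-domain protein, and Vwa1 (1.44), a matrix protein. Of 16 cholesterol synthesis genes, 0 were called, with a median of -0.08 over 5 mice. Lists for Müller glia, horizontal cells, inflammation, cell cycle, and the integrated stress response had 0 called, with medians over 5 mice of -0.17, 0.11, -0.07, 0.20 and -0.17. Of tissues around the retina, pigment epithelium, cornea and red cell markers had 0 called and medians of 0.30, -1.24 and -0.15. Crystallins had a median of 7.69 over 6 mice, where all 16 had an unadjusted p below 0.05, and of 0.80 over 5, where 0 did. The other lens genes had medians of 7.10 and -0.21.

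**Figure D4:**
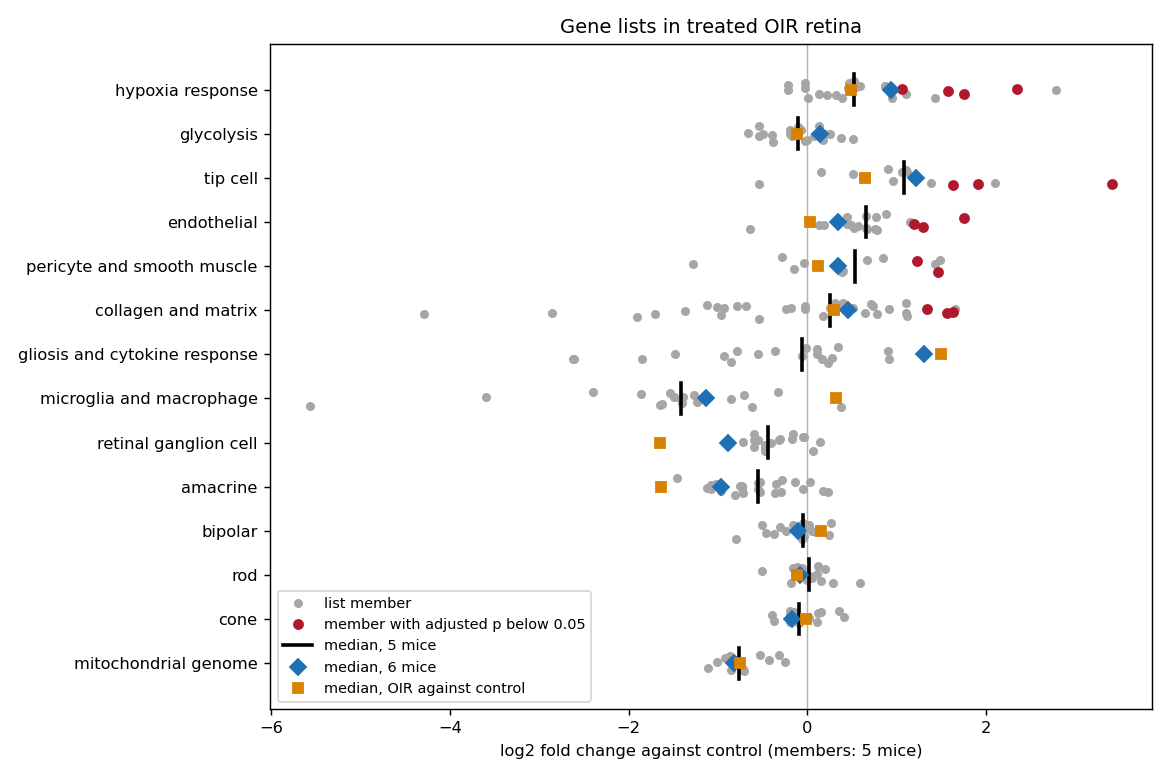
Log2 fold change of treated OIR against control (horizontal axis) for the members of 14 gene lists over 5 mice (grey points; red, adjusted p below 0.05), with the list's median over 5 mice (black bar), over 6 mice (blue diamond) and in OIR against control mice (orange square). Of these lists, called members appear only among hypoxia, tip cell, endothelial, pericyte and matrix genes, and the gliosis median moves from 1.31 to -0.05 when treated OIR mouse 2 is left out.

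The vehicle OIR mice give the values these levels can be set beside. Both comparisons use the same 3 control mice and are not independent. OIR against control, fitted alone, had 494 genes higher (2.88% of 17166) and 1277 lower (7.44%) at an adjusted p below 0.05 in edgeR. Vegfa was at 231, 245 and 219 CPM in OIR mice 3, 5 and 6, and differed from control by 0.92 ± 0.10, against 1.06 ± 0.11 in treated mice. Egln3 was at 24.3, 18.4 and 82.1 CPM in OIR mice (2.42 ± 0.54, against 1.58 ± 0.19), where mouse 6 was the highest. Ndufa4l2 was at 86.2, 74.6 and 82.6 CPM in OIR mice (2.11 ± 0.17, against 2.36 ± 0.19). The hypoxia-response median was 0.49 in OIR and 0.52 in treated mice. The ganglion cell median was -1.65 in OIR and -0.44 in treated mice, and the amacrine median -1.64 and -0.55. For the mitochondrial genome the medians were -0.76 and -0.76. These treated values are without mouse 2. With it, the values against control were 3.36 ± 0.90 for Egln3, above that of OIR mice, 1.42 for Vegfa and 2.93 for Ndufa4l2, and the hypoxia-response, ganglion cell and amacrine medians were 0.94, -0.89 and -0.97.

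Whether treated and vehicle OIR mice differed was tested directly, without the controls. In edgeR 0 genes had an adjusted p below 0.05, with 739 genes at an unadjusted p below 0.05 over all 6 OIR mice and 2502 without treated OIR mouse 2 (lowest adjusted p 0.0665). The difference, treated minus vehicle OIR without mouse 2, was 0.13 ± 0.10 for Vegfa, 0.04 ± 0.26 for Stc2 and 0.23 ± 0.12 for Ndufa4l2, none past an unadjusted p of 0.05. With mouse 2 included these differences were 0.47, 0.87 and 0.80. Egln3 differed by -0.86 ± 0.60 without mouse 2 and by 0.91 ± 0.97 with it, and so changed sign. Kdr was lower in treated than in vehicle OIR mice, by -0.52 ± 0.17, Apln higher, by 0.52 ± 0.21, and Hmox1 lower, by -4.22 ± 1.12. These 3 had unadjusted edgeR p values of 0.0197, 0.0421 and 0.0065 (adjusted p = 0.261, 0.329 and 0.218), and with mouse 2 the differences were -0.41, 0.88 and -1.07. Pvalb was higher in treated than in vehicle OIR mice by 1.52 ± 0.52, and Thy1 by 1.56 ± 0.44 (edgeR adjusted p = 0.266 and 0.218). Rgs5 was higher by 1.35 ± 0.55 and Aplnr by 1.17 ± 0.49 (edgeR adjusted p = 0.328 and 0.338). In OIR mice 3, 5 and 6, Rgs5 was at 205, 113 and 38.3 CPM and Aplnr at 28.9, 19.8 and 6.57 CPM, so OIR mouse 3 was near the treated mice 5 and 10 and OIR mouse 6 near treated mouse 2. With mouse 2 the differences for Pvalb, Rgs5 and Aplnr were 0.97, 0.85 and 0.65, and none reached the threshold. The Thy1 difference is given only without mouse 2, in which Thy1 was far lower than in mice 5 and 10.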

How the data were processed

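Bulk RNA sequencing of P17 mouse retina was analysed from the counts the authors deposited, whole numbers per gene without normalization for 54532 genes and 9 mice. The labels name CASAVA and HISAT, without version. The counting tool, annotation, filters and use of strand are not given in the sources used here. Of the gene identifiers, 54409 were found in GENCODE M21 (GRCm38), 53499 at the same position, and coordinates are on that build. Groups follow the treatment label, since the treatment protocol text is the same for all mice.

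Counts of 3 treated OIR and 3 control mice were fitted alone with edgeR 4.0.16 (quasi-likelihood test, TMM factors, default filter by group) in R 4.3.3, with and without treated OIR mouse 2. Benjamini-Hochberg adjusted p below 0.05 over all genes tested was called. A standard error is the log2 fold change divided by the square root of its F statistic. CPM are TMM-scaled over the 9 mice and compare mice, not genes. Replicates differed by more than sampling noise (chi-square per degree of freedom 11.2 to 252). Counting error is small at this depth, and precision is set by the spread between mice.

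Named genes had a mean log2 CPM (prior count 2) of at least 1, no crystallin, no overlap between groups over 6 mice, an unadjusted p below 0.05 over 6 mice and an adjusted p below 0.05 over 5. The 12 largest rises and up to 12 falls were taken (11 passed), with up to 4 genes for each of 28 lists, and Hif1a, Epas1, Vegfa, Apln, Adm and Kdr. Other called genes and some list members were named after their values were seen. The genes, lists and comparisons were chosen with earlier results of these data known. DESeq2 1.42.0 and limma-voom 3.58.1 were alternatives. Counts were also simulated with the same dispersion for every gene, changed genes taken from well-counted ones, and no outlier mouse. On these, edgeR recovered 89.2% of genes changed by 2 on the log2 scale and 22.5% of those changed by 1 over 6 mice (16932 genes). Over 5 mice it recovered 99% and 33.7% (17180 genes). The real mice differ in these respects, so these rates are not the power of the real comparison. Promoters are from RefSeq (GRCm38.p6).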

Additional observations from a re-analysis of the deposited data

How the results depend on the processing

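Over the 6 mice the count of genes called higher and lower was 0 and 0 in edgeR, 142 and 134 with DESeq2, 20 and 7 with limma-voom, 3 and 2 without the filter on low counts, and 2 and 2 with all 9 mice in 1 fit. It was 0 to 24 higher and 0 to 12 lower when 1 mouse at a time was left out, the highest being without treated OIR mouse 2. Over the 5 mice it was 24 and 12, and became 294 and 437 with DESeq2, 280 and 267 with limma-voom, 418 and 669 without the filter, 3 and 0 with all groups in 1 fit, 43 and 38 with robust dispersions, 29 and 20 with sex as a covariate, and 22 and 6 with an absolute log2 fold change above 1. With 1 more mouse left out it was 0 to 39 and 0 to 33, where a lone treated mouse is assumed to vary like the controls. With at least 10 counts in every mouse it was 28 and 18. All 36 genes called over 5 mice had the same direction in all 17 alternatives. These reuse the mice in which the genes were chosen and are no independent support. Of the 36, 3 were called with all groups in 1 fit, 6 without control mouse 6 and 25 with total counts alone. OIR against control had 494 and 1277 calls, 889 and 1642 with DESeq2, and 45 to 509 and 175 to 1181 with 1 mouse left out. The cause of these shifts was not tested.

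Genes that were not called and changed sign when 1 mouse was left out of the 6 had log2 values of -2.62 to 3.22 for Lcn2, -1.48 to 2.94 for Bcl3, -0.55 to 2.61 for Socs3, -5.56 to 0.87 for Spp1, -3.60 to 0.54 for Lyz2 and -0.22 to 3.63 for Hmox1. Hmox1 ranged from -0.62 to 0.51 over 5 mice. Under limma-voom over 6 mice the values were -2.21 for Lcn2, -1.15 for Bcl3 and -0.36 for Socs3, where the main values were positive. No paired analysis was possible because treated OIR and control mice share no replicate number. The groups held 3 mice each, of mixed sex, and 1 treated library held lens RNA.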
